A study of Mus musculus with 2 samples.

Results

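The Lingo family is the set of 4 genes Lingo1, Lingo2, Lingo3 and Lingo4, taken by symbol from the 32285 genes counted in single nuclei of the mouse cerebellum at postnatal day 1. The family was chosen by symbol, but with its UMI levels by class in these libraries already known, among them the Lingo2 level of granule neurons, so the levels are described here and not tested. There were 2 libraries. The control library came from 12 pooled cerebella of littermates without Cre, whose genotype the labels give as Tox3f/f and whose library name also allows Tox3f/+. The library labelled conditional knockout (cKO) came from 12 pooled cerebella of Nestin-cre;Tox3f/f mice, in which Cre under the Nestin promoter and enhancer acts in neural precursors and their progeny. Both libraries thus carry floxed Tox3 alleles, and the animals of a pool cannot be told apart.

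LINGO proteins are single-pass membrane proteins with a stack of leucine-rich repeats and 1 immunoglobulin domain facing outward. LINGO1 is the member known best: it joins the Nogo receptor and p75 (Ngfr) or TROY (Tnfrsf19) in a complex that carries signals of myelin-associated ligands through RhoA, restrains axon growth and holds back oligodendrocyte differentiation. Much less is known of the other members. Granule neurons (GN) are the most numerous neurons of the cerebellum and arise after birth from dividing granule neuron precursors (GNPs) at its surface.

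Lingo1 (ENSMUSG00000049556) lies on the minus strand of chromosome 9, from 56618475 to 56796468 on GRCm38, and spans 178 kb with 4 coding transcripts in the GENCODE M21 annotation. Lingo2 (ENSMUSG00000045083) lies on the minus strand of chromosome 4, from 35706647 to 36951747, and spans 1245 kb, although its 1818 coding bases all sit in 1 exon. Most of the Lingo2 locus is therefore intron and non-coding exon. The annotation places 6 small genes inside it, 3 of them on the same strand, and none of the 6 was counted in these files. Lingo3 (ENSMUSG00000051067, chromosome 10, 80832801 to 80844039, minus strand) spans 11.2 kb, and Lingo4 (ENSMUSG00000044505, chromosome 3, 94398517 to 94404501, plus strand) spans 5.99 kb. Lingo4 overlaps the antisense gene Gm43401, which had 18 UMIs in each library, and how reads were split between the pair was not checked.

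The 2 genes with most of the counts differ in the sequence before their RefSeq start sites. RefSeq lists a pair of starts for each on GRCm38.p6, and the 250 bases before each start are shown 5′ to 3′ as the start regions of the 2 members with the most UMIs. No value here links these sequences to a difference between the libraries. Capitals mark E-boxes (CANNTG, which reads the same on both strands), the letters that basic helix-loop-helix factors recognise.

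Lingo2, chr4:35845205-35845454, minus strand: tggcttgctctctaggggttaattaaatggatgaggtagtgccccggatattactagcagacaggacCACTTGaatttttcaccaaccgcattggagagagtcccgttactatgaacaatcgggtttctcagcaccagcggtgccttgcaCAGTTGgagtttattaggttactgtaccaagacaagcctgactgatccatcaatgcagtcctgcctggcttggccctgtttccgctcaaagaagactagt

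Lingo2, chr4:36718964-36719213, minus strand: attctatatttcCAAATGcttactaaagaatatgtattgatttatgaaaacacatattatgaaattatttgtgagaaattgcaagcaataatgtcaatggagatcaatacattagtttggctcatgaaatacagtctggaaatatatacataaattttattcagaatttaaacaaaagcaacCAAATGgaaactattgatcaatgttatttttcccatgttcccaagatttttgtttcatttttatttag

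Lingo1, chr9:56635649-56635898, minus strand: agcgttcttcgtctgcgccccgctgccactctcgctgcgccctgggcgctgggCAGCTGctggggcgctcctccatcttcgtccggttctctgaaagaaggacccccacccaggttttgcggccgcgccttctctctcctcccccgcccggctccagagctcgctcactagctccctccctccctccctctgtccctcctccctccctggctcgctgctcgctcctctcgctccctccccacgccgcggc

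Lingo1, chr9:56796311-56796560, minus strand: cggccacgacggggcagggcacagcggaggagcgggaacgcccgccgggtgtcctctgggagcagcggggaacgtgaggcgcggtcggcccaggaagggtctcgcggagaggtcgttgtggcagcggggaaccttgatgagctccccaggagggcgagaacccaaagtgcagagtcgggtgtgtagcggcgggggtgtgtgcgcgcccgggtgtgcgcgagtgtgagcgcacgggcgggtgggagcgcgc

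The Lingo2 windows held 2 E-boxes each and the Lingo1 windows 1 and 0, while 66.2% of 32851 promoter windows of this length held at least 1. The window of the more upstream listed Lingo2 start was AT-rich, with 25.2% G and C and 0 CpG, against a median of 52.4% over all windows. Both Lingo2 windows lie inside the GENCODE span of the gene. Its annotated 5′ end is at 36951747, and the sequence before that end is not shown. The Lingo1 windows had 70.4% and 72.8% G and C, and 22 and 31 CpG. Counts taken from the polyadenylated end do not tell which start was used.

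Unique molecular identifiers (UMIs) were summed over the nuclei of a class in each library and given per 1000000 UMIs of that class (CPM). The kept nuclei numbered 4667 in control against 6555 in the library labelled cKO, with 20493455 and 30169066 UMIs and 9 barcodes in common. Classes end in "-like" because they were rebuilt from marker genes, and none of the Lingo genes helped to define them. The targeted gene did not check the labels: Tox3 had 104 CPM in control against 118 CPM in the library labelled cKO, with a ratio of 1.14 (95% interval 1.08 to 1.20). The Tox3 ratio was 1.71 (1.44 to 2.04) in GN-like and 1.99 (1.70 to 2.32) in GNP-like nuclei. Where these Tox3 counts lie relative to the deleted part of the gene was not examined. The study reported near-complete deletion of Tox3 by quantitative PCR in mutant cerebella of this age. Atoh1, a basic helix-loop-helix transcription factor gene of granule neuron progenitors, had 42 and 3 UMIs over all kept nuclei, a ratio of 0.0485 (0.00962 to 0.152). In GNP-like nuclei Atoh1 had 16 and 0 UMIs, and the interval of 0 to 1.11 included 1. In GN-like nuclei it had 9 and 0 UMIs (0 to 0.477). The share of GNP-like nuclei differed between the libraries, and its part in the Atoh1 ratio over all kept nuclei was not tested. Each group was 1 library, so no difference has a replicate check, and every interval covers counting error only. Clusters 1 and 4 were of low depth and nearly specific to 1 library each, holding 1015 nuclei of control but 693 in the library labelled cKO, and they enter only the values over all kept nuclei.

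Over all kept nuclei, Lingo2 had the most UMIs of the 4 members. It had 22979 UMIs in control (1121 CPM) against 48073 in the library labelled cKO (1593 CPM), with a ratio of 1.42 (1.40 to 1.44). Lingo1 had 2038 and 2918 UMIs, or 99.4 and 96.7 CPM, a ratio of 0.97 (0.92 to 1.03). Lingo3 had 119 and 214 UMIs (5.81 and 7.09 CPM), and Lingo4 had 38 in each library (1.85 and 1.26 CPM). A gene was called higher or lower where the ratio passed 1.5-fold and its interval left out 1. None of the 4 members was called over all kept nuclei, where 4.58% of all genes were called higher and 5.57% lower. Lingo2 passed 1.5-fold, at 1.53, with nuclei thinned to 1000 UMIs. Lingo3 was at 1.999 (1.30 to 3.14) among nuclei holding Y-linked but not Xist UMIs and at 0.961 (0.698 to 1.33) among those holding Xist only. The balance of these nuclei differed between the pools. Xist-only and Y-only nuclei numbered 1886 and 1415 for control, against 3816 and 1462 for the other library. Lingo2 over all kept nuclei was at 1.41 in Xist-only and 1.44 in Y-only nuclei. In Xist-only and Y-only nuclei the Lingo2 ratio was 1.63 and 1.58 for GN-like nuclei and 1.01 and 1.01 for Purkinje cell-like nuclei. For GNP-like nuclei it was 2.27 and 1.19. For ratios that were not split in this way, the part of sex was not tested. The makeup of the libraries also differed, with GNP-like nuclei at 11.2% of all control nuclei but 1.98% in the library labelled cKO, so the comparisons follow by class. In such sums, fewer cells of a type and less RNA per cell cannot be told apart.

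To set the genes side by side, levels were divided by gene length, and whether these counts grow with length was not tested. Per kb of gene span the control levels over all kept nuclei were 0.901 CPM for Lingo2, 0.559 for Lingo1, 0.517 for Lingo3 and 0.310 for Lingo4, so on this scale the members lay close together. Per kb of annotated exon they were 135, 21.1, 1.63 and 0.509 CPM. In control the order of the members was the same on both scales, but in the library labelled cKO Lingo3 stood above Lingo1 per kb of span (0.631 against 0.543 CPM) and below it per kb of exon. Whether intronic reads were counted is not stated, so neither scale is the settled one. In Purkinje cell-like nuclei of control, Lingo3 and Lingo2 had 1.48 and 1.31 CPM per kb of span.

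Lingo2 was high in neurons and low in granule progenitors and immune cells. Its control level was highest in Glutamatergic CN-like nuclei of the cerebellar nuclei (CN), at 2145 CPM, and in GABAergic CN-like nuclei, at 2013 CPM, a pair whose intervals overlapped. Purkinje cell-like nuclei followed with 1630 CPM and GABAergic interneuron-like nuclei with 1599 CPM, again with overlapping intervals. GN-like nuclei had 1184 CPM. Glia of the astrocyte kind had intermediate levels, 780 CPM in Parenchymal astrocyte-like and 602 CPM in Bergmann glia-like nuclei. The lowest were Oligodendrocyte lineage-like nuclei with 87.9 CPM, GNP-like nuclei with 77.8 CPM and Microglia-like nuclei with 57.9 CPM, which did not differ beyond counting error.

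Microglia are not known for this gene, so their level was used as a stand-in for free RNA, which was not itself measured. It rested on 10 UMIs in control (57.9 CPM, 27.8 to 106) and 39 UMIs in the library labelled cKO (89.9 CPM, 64.0 to 123). The Microglia-like class had 53 and 151 nuclei at median depths of 2923 and 2546 UMIs, and it included a cluster of Mrc1 and Lyve1 macrophages. With every nucleus thinned to 1000 UMIs, 5.52% of control Microglia-like nuclei against 9.02% in the library labelled cKO still held a Lingo2 UMI. The share in control GNP-like nuclei was 7.35%, and in the dividing GNP-like cluster 6.08%. Lingo2 in control GNP-like nuclei was thus not separable from the Microglia-like level. In GN-like nuclei the thinned share was 37.6% for control against 54.5% in the library labelled cKO. The unthinned shares were 60.0% (676 of 1127 nuclei, median depth 4644 UMIs) and 72.6% (1035 of 1426, median depth 3966 UMIs), so the library with the shallower GN-like nuclei had the larger share. Unthinned Microglia-like shares were 15.1% and 21.9%.

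**Figure D1:**
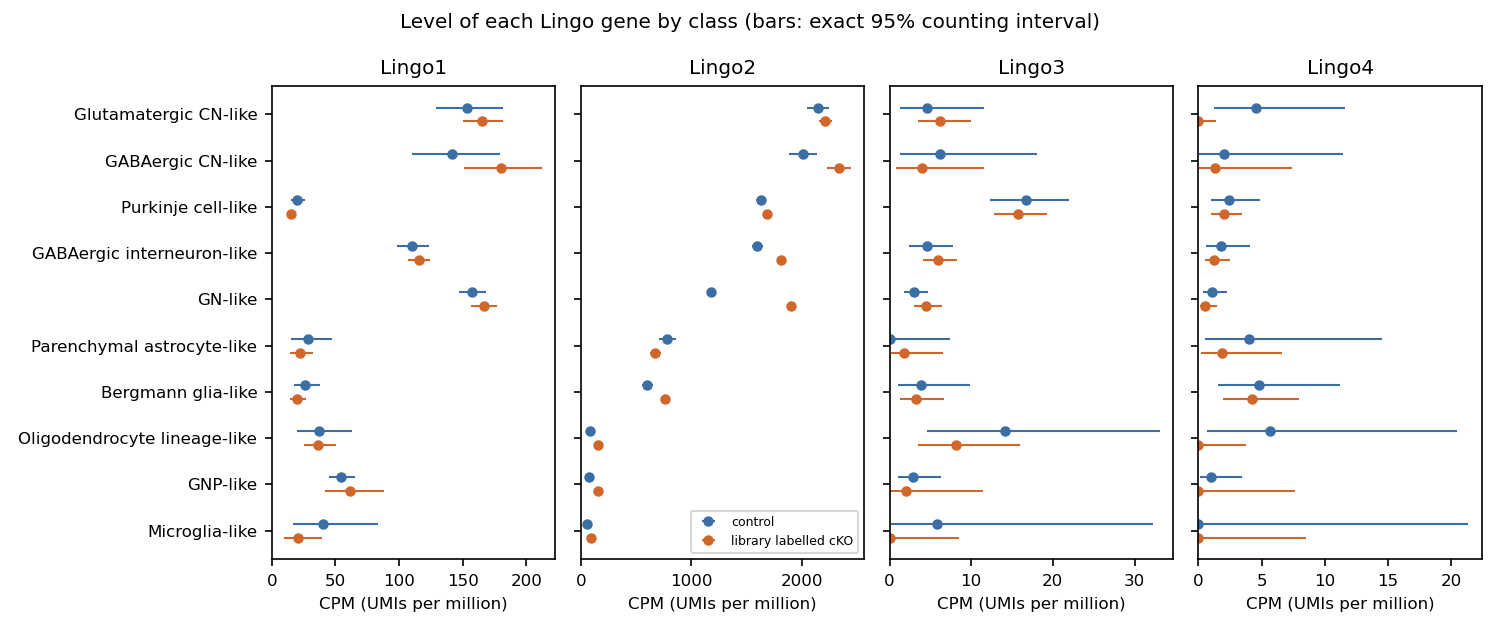
Level of Lingo1, Lingo2, Lingo3 and Lingo4 in 10 classes, in CPM on linear axes that differ between genes, for the control library (blue) and the library labelled cKO (orange), with exact 95% counting intervals. The Lingo2 difference in CPM was largest in GN-like nuclei (1184 and 1899 CPM), and Lingo1 was low in Purkinje cell-like nuclei, where Lingo3 was highest.

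Lingo1 followed another order. Its control level was highest in GN-like nuclei, at 157 CPM, followed by Glutamatergic CN-like (154 CPM) and GABAergic CN-like nuclei (142 CPM), whose intervals all overlapped. In the library labelled cKO GABAergic CN-like nuclei stood first, at 180 CPM. Control GABAergic interneuron-like nuclei had 111 CPM. GNP-like nuclei had 54.8 CPM. Purkinje cell-like nuclei came last of the 11 classes in both libraries, with 20.05 CPM in control (59 UMIs) and 15.3 CPM in the library labelled cKO (92 UMIs), beside 40.5 and 20.8 CPM in Microglia-like nuclei. Unthinned, 14.4% and 10.8% of Purkinje cell-like nuclei held a Lingo1 UMI, at median depths of 9282.5 and 7956 UMIs, and 13.2% and 5.96% of the shallower Microglia-like nuclei did. Purkinje cell-like nuclei therefore combined high Lingo2 with low Lingo1, whereas GN-like and CN-like nuclei held both. Whether the Lingo1 UMIs of Purkinje cell-like nuclei exceed free RNA was not tested. Over 22 class by library values, the log2 levels of Lingo1 and Lingo2 had a Pearson correlation of 0.44, given as a description since the values of a library share its depth and free RNA.

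Oligodendrocyte lineage-like nuclei, in which LINGO1 is known as a brake on differentiation, had Lingo1 at 36.8 CPM in control (13 UMIs) and 36.4 CPM in the library labelled cKO (36 UMIs). The level did not differ from that of Microglia-like nuclei beyond counting error. The class held 76 and 251 nuclei, and its leading genes Sox10, Pdgfra and Gpr17 are those of precursors.

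Lingo3 was rare. Its highest level was in Purkinje cell-like nuclei, with 49 UMIs (16.6 CPM, 12.3 to 22.0) in control and 95 UMIs (15.8 CPM, 12.8 to 19.3) in the library labelled cKO. These were 41.2% and 44.4% of all Lingo3 UMIs, from 6.26% and 10.97% of the nuclei. Purkinje cell-like nuclei were deeper, at medians of 9282.5 and 7956 UMIs against 3978 and 4025 over all kept nuclei. Their share of nuclei thus understates their share of all UMIs, and CPM is the fairer measure. GN-like nuclei had 2.98 and 4.45 CPM, below the Purkinje cell-like intervals. Oligodendrocyte lineage-like nuclei had 14.2 CPM in control, but this rested on 5 UMIs. Lingo3 in Purkinje cell-like nuclei had a ratio of 0.95 between the libraries (0.66 to 1.37).

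Lingo4 was the scarcest member, and no class in either library had more than 12 UMIs. Purkinje cell-like nuclei had 7 and 12 UMIs, and Bergmann glia-like nuclei had 5 and 9 UMIs (4.81 and 4.197 CPM). Microglia-like nuclei had none in either library, which at this depth allowed up to 21.4 CPM in control by the exact interval. Glutamatergic CN-like nuclei had 4 UMIs in control and 0 otherwise, the ratio reaching up to 0.517 by its interval. Lingo4 was not measurable well enough to order the classes.

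Within classes, Lingo2 varied widely between clusters. The GABAergic interneuron-like class ran from 81.4 CPM of Lingo2 (18 UMIs) in control cluster 21, which held division genes such as Aspm, and 96.7 CPM in cluster 11, whose leading genes Pax2 and Skor1 mark young interneurons, to 3049 CPM in cluster 14, led by Tll2 and holding Sst. In cluster 14 every nucleus of both libraries had a Lingo2 UMI (91 and 249 nuclei), and the median nucleus had 20 UMIs in control against 18 in the library labelled cKO. Cluster 9, with the glycine transporter Slc6a5 among its leading genes, had 2429 and 2691 CPM, and cluster 12, with Kit, 462 and 592 CPM. Lingo1 ranged from 93.1 to 159 CPM over both libraries in clusters 9, 11, 12 and 14, and was 31.6 and 61.3 CPM in the dividing cluster 21. The Purkinje cell-like clusters differed too, with 1368 CPM of Lingo2 in control cluster 6 and 2011 CPM in cluster 8, with the transcription factor gene Ebf2 among its leading genes.

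GN-like nuclei showed the same spread. Cluster 0, led by Svep1 and Frem2, had 1850 CPM of Lingo2 in control, while cluster 5, with Reln and Cadps2 among its leading genes, had 157 CPM and cluster 7, with the early marker Cntn2, had 103 CPM. Lingo1 was 180, 141 and 89.0 CPM in the same clusters. Both genes were thus higher in cluster 0 than in the Cntn2 cluster, but Lingo1 far less so. Cluster 2 held granule markers (517 CPM of Pax6 and 598 CPM of Rbfox3) but also Otx2 among its leading genes, and it was left unnamed. Its control Lingo2 level was 755 CPM.

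Between the libraries, Lingo2 was higher in the library labelled cKO in the granule lineage and nearly equal in Purkinje and glutamatergic CN neurons. In GN-like nuclei 6763 UMIs (1184 CPM) stood against 11512 UMIs (1899 CPM), a ratio of 1.60 (1.56 to 1.65). In Purkinje cell-like nuclei 4796 UMIs (1630 CPM) stood against 10123 UMIs (1682 CPM), a ratio of 1.03 (1.00 to 1.07). The clusters of this class lay on opposite sides of 1, at 0.949 (0.902 to 0.998) in cluster 6 and 1.06 (1.01 to 1.12) in cluster 8. In Glutamatergic CN-like nuclei the levels were 2145 and 2214 CPM, a ratio of 1.03 (0.98 to 1.09). The interval of the GN-like ratio did not overlap those of the other neuron classes named here, but with 1 library a group the difference between classes has no test.

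GABAergic interneuron-like nuclei had a Lingo2 ratio of 1.13 (1.10 to 1.17), GABAergic CN-like nuclei 1.16 (1.07 to 1.26) and Bergmann glia-like nuclei 1.27 (1.16 to 1.40). Oligodendrocyte lineage-like nuclei had 31 and 151 Lingo2 UMIs, a ratio of 1.74 (1.18 to 2.65). Their control level was near that of Microglia-like nuclei. In the library labelled cKO their level was 153 CPM (129 to 179), above the 89.9 CPM (64.0 to 123) of Microglia-like nuclei. Parenchymal astrocyte-like nuclei went the other way, with 780 CPM in control against 677 CPM in the library labelled cKO, with a ratio of 0.87 (0.77 to 0.98). Of the 11 classes, 10 had a Lingo2 ratio above 1, and in 7 of them the interval left out 1. For Lingo1 no class had an interval that left out 1, and its ratio ran from 0.51 in Microglia-like to 1.27 in GABAergic CN-like nuclei.

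**Figure D2:**
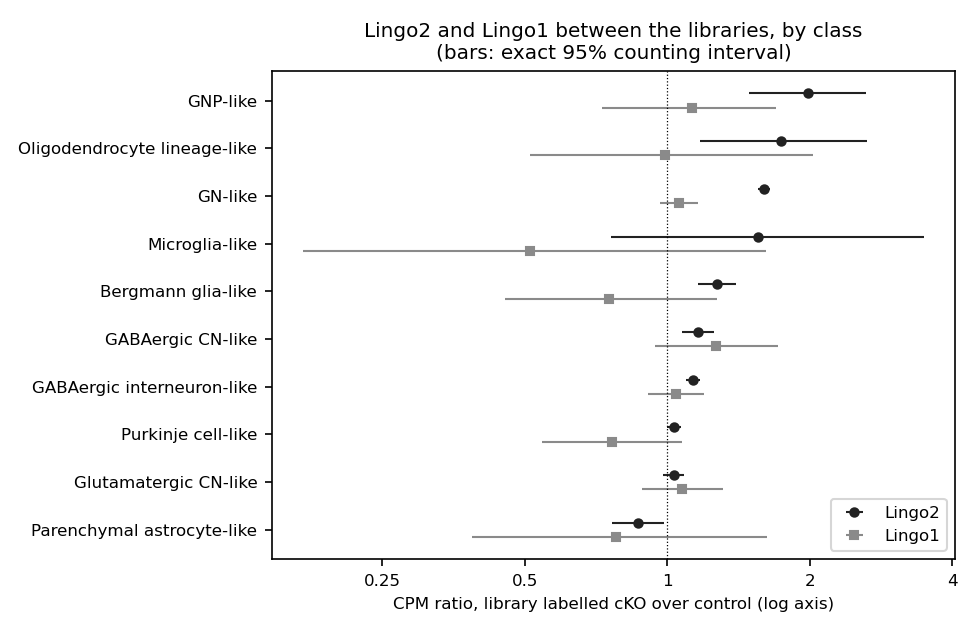
CPM ratio of the library labelled cKO over control for Lingo2 (black circles) and Lingo1 (grey squares) in 10 classes on a log axis, with exact 95% counting intervals and a dotted line at 1. GNP-like and GN-like nuclei stood at 1.99 and 1.60 for Lingo2, and all Lingo1 intervals included 1.

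Lingo2 was called higher in GN-like nuclei and Lingo1 and Lingo3 were not, while Lingo4 was under the minimum of 20 UMIs. Among 14892 genes tested there, 2.87% were called higher and 3.54% lower. The contrast was in view when the members were chosen, so nothing is read from the count. Among 7644 genes with at least 200 UMIs in GN-like nuclei, 99 (1.30%) had a higher ratio than Lingo2, and 31.2% had a higher ratio than Lingo1. Genes spanning over 500 kb, to which Lingo2 belongs, had a median ratio of 1.05 in GN-like nuclei (quartiles 0.89 and 1.23, 232 genes), and 8.19% of them were called higher. Genes of this span had, in Purkinje cell-like nuclei, a median ratio of 0.99 and none called higher. The part of gene length in the Lingo2 ratio was not tested.

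In GNP-like nuclei Lingo2 had 162 UMIs (77.8 CPM) in control against 75 UMIs (154 CPM) in the library labelled cKO, with a ratio of 1.99 (1.49 to 2.63). Lingo2 was called higher there and Lingo1 (54.8 and 61.8 CPM) was not, against 7.02% of 11382 genes called higher and 6.57% lower. Of the 220 genes spanning over 500 kb, 21.4% were called higher in GNP-like nuclei, with a median ratio of 1.06 and an upper quartile of 1.49, and the part of gene length in the Lingo2 value was not tested. In control the GNP-like level was close to the Microglia-like level. In the library labelled cKO it was 154 CPM (122 to 194) against 89.9 CPM (64.0 to 123), with intervals that barely overlapped. The Microglia-like level was itself 57.9 and 89.9 CPM, a ratio of 1.55 (0.76 to 3.49). Among nuclei that held Y-linked but not Xist UMIs the GNP-like ratio was 1.19 (0.49 to 2.52), and with the automatic doublet threshold it was 1.43 (1.08 to 1.87). With the Microglia-like level subtracted it was 3.24, a value without an interval. That value divides by the difference of 2 control levels that were not separable, so nothing is read from it. In Purkinje cell-like nuclei no member was called (1.44% of genes higher, 4.08% lower), nor in GABAergic interneuron-like nuclei (1.37% higher, 2.24% lower).

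To separate level from makeup, the granule lineage (GNP-like, GN-like and cluster 2, with 2045 nuclei in each library) was divided into 10 states without the Lingo genes. Lingo2 was higher in the library labelled cKO in all 10 states, and each interval left out 1. Apart from the small state 9, the states of progenitors were the lowest in control. State 6, led by the division genes Top2a and Knl1, had 72.3 CPM in control against 136 CPM in the library labelled cKO. State 7, with Col18a1 and Fgfr4 and with 612 CPM of the Hedgehog effector Gli2, had 88.5 and 170 CPM. In each library the intervals of states 6 and 7 overlapped that of the Microglia-like level, 57.9 and 89.9 CPM.

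State 4, the state with the most Cntn2 (390 CPM), had 109 and 161 CPM of Lingo2, still close to the Microglia-like level in control. State 0, led by A730004F24Rik, Adamtsl3 and Cartpt, had 183 and 372 CPM, a ratio of 2.03 (1.76 to 2.35). State 2, with Opcml and Alk among its leading genes and drawn most from cluster 2, had 662 and 1943 CPM, a ratio of 2.94 (2.69 to 3.203). State 5, led by Gm12027, Kcnip4 and Tmem132b and likewise drawn most from cluster 2, had 787 and 1946 CPM, a ratio of 2.47 (2.25 to 2.72). The states drawn from cluster 2 thus had the largest ratios among the states with at least 20 control UMIs.

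State 3, with Nebl and the bicarbonate transporter gene Slc4a4, had 978 and 1850 CPM of Lingo2, a ratio of 1.89 (1.74 to 2.05). State 8, with the ephrin receptor gene Epha5, Olfm3 and Gfra1, had 1678 and 2617 CPM, a ratio of 1.56 (1.43 to 1.70). State 1, with the metabotropic glutamate receptor gene Grm8, Gas7 and Stab2, had the highest levels of all, 2326 and 3276 CPM, and the smallest ratio, 1.41 (1.36 to 1.46). State 9, led by collagen genes and with 54.0 CPM of Rbfox3, was small (26 and 36 nuclei) and rested on 3 and 18 Lingo2 UMIs, a ratio of 4.45 (1.30 to 23.6). Its leading genes go against a granule identity, and it was kept only because its nuclei fell in the clusters of the lineage.

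**Figure D3:**
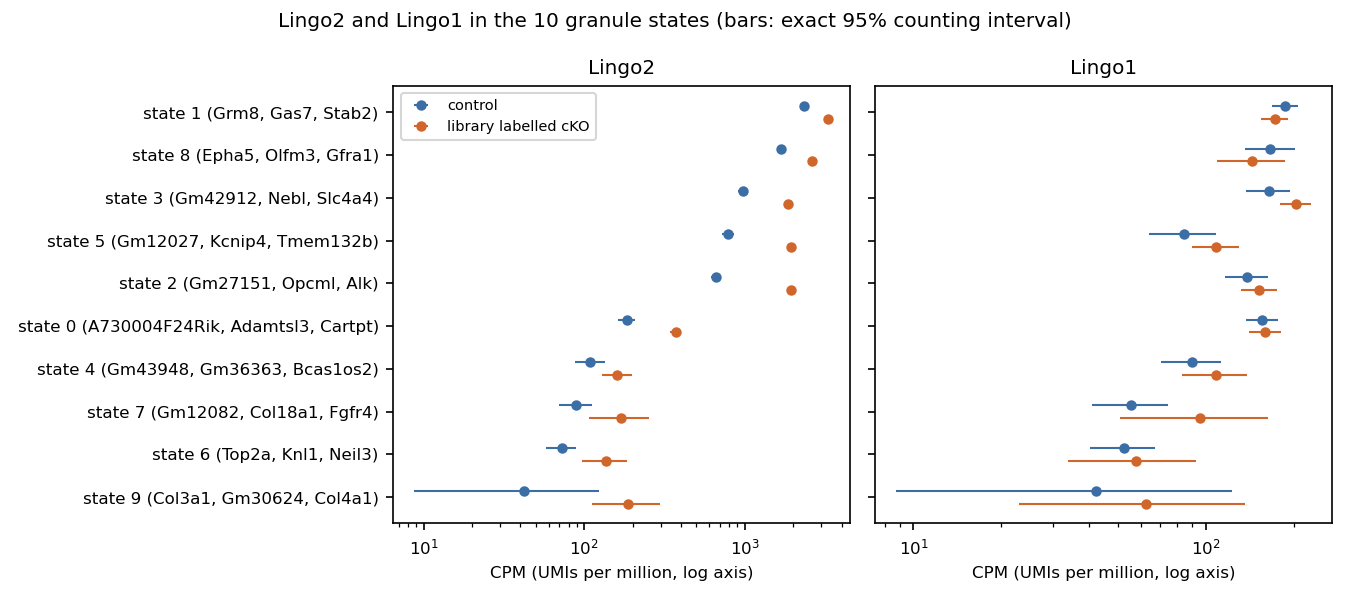
Lingo2 (left) and Lingo1 (right) in the 10 states of the granule lineage, in CPM on log axes, with exact 95% counting intervals. States are ordered by control Lingo2 and named by their 3 leading genes. The library labelled cKO (orange) lay to the right of control (blue) for Lingo2 in every state, for example at 72.3 and 136 CPM in state 6 and at 2326 and 3276 CPM in state 1, while the Lingo1 intervals of the 2 libraries overlapped.

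Lingo1 in the same states ran from 52.4 CPM in control state 6 to 187 CPM in control state 1, with the 3 UMIs of state 9 left aside. It was 55.7 CPM in state 7, 90.1 CPM in state 4 and 156 CPM in state 0. Lingo1 was therefore already near its highest level in state 0, where Lingo2 in control was still 183 CPM against 2326 CPM in state 1. Between the libraries Lingo1 was above 1 in 8 of the 10 states, but the interval left out 1 only in state 3 (165 and 204 CPM, a ratio of 1.24, 1.00 to 1.54). Over the whole granule lineage Lingo1 had 129 and 153 CPM, a ratio of 1.19 (1.10 to 1.28), with the shares of the states differing between the libraries.

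As measured, the granule lineage had 864 CPM of Lingo2 in control against 1761 CPM in the library labelled cKO, with a ratio of 2.04 (1.98 to 2.09). With each state weighted by its control share of UMIs, the level of the library labelled cKO was 1468 CPM, a ratio of 1.70 (1.65 to 1.75). With the control level of each state at the shares of the library labelled cKO, the lineage would have had 1001 CPM, 1.16 times the control value. Most of the difference thus lay within states. The states most reduced in share were those of progenitors, state 6 from 12.96% to 3.37% and state 7 from 11.9% to 2.30% of the lineage, while state 3 went from 7.29% to 15.4%. Finer differences in maturity within a state cannot be told apart from a change of level at equal maturity.

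Single nuclei showed where the counts lay. In control cluster 0 the nuclei ranged from 0 to 71 Lingo2 UMIs with a median of 7, and 13.5% had none. In the library labelled cKO they ranged from 0 to 83 with a median of 10, and 5.14% had none. Nuclei over 3000 CPM were more frequent at each step, for example 10.0% of control nuclei against 17.1% in the library labelled cKO between 3000 and 4000 CPM, so the whole distribution lay higher. Cluster 2 changed most in shape, since 47.7% of control nuclei against 18.8% in the library labelled cKO with at least 1000 UMIs had no Lingo2 UMI. In Purkinje cell-like nuclei the median was 14 UMIs in control (0 to 66) against 11 in the library labelled cKO (0 to 93), with median depths of 9282.5 and 7956 UMIs, and 5.14% and 6.12% had none.

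**Figure D4:**
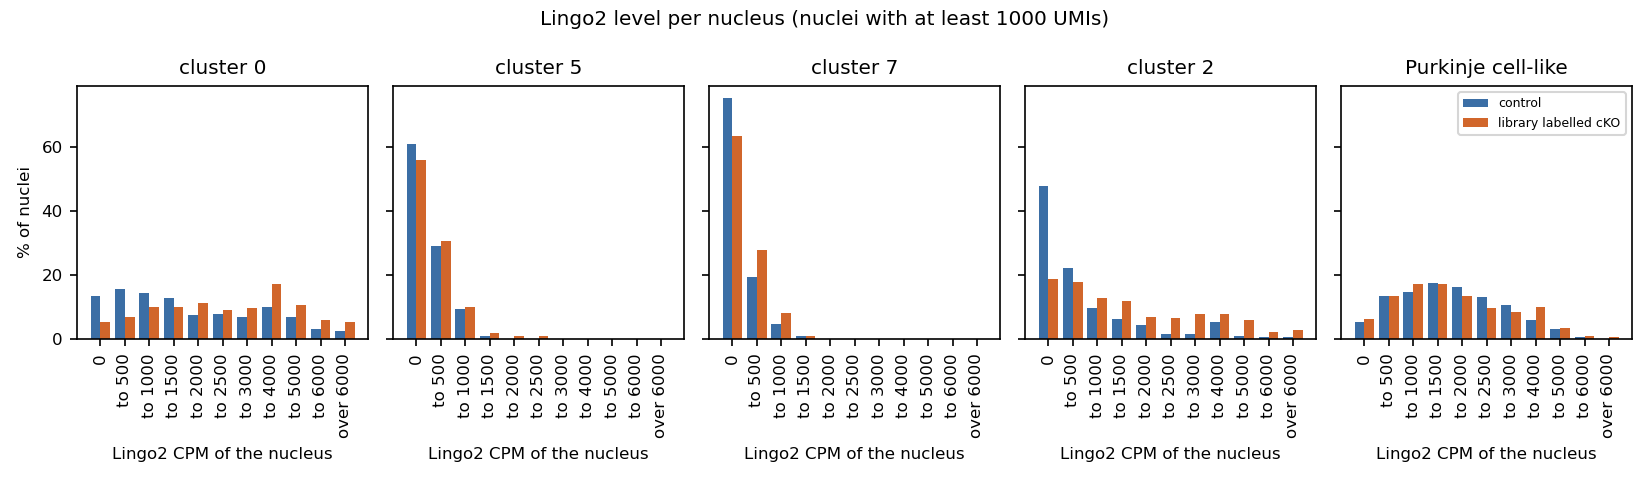
Percent of nuclei in each range of Lingo2 CPM per nucleus, for GN-like clusters 0, 5 and 7, for cluster 2 and for Purkinje cell-like nuclei, in control (blue) against the library labelled cKO (orange), among nuclei with at least 1000 UMIs. Ranges widen from 500 to 1000 CPM above 3000 CPM. Fewer nuclei of the library labelled cKO sat at 0 in clusters 0 and 2 (5.14% against 13.5%, and 18.8% against 47.7%), while in Purkinje cell-like nuclei 6.12% and 5.14% did.

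Within GN-like nuclei Lingo1 and Lingo2 were counted in the same nuclei about as often as their separate shares give. At 1000 UMIs, 5.76% of control nuclei held both, where the product of the separate shares was 5.18%, and 8.83% of the library labelled cKO held both, against a product of 8.38%. Among control GN-like nuclei, 15.3% of those with a Lingo2 UMI and 12.9% of those without held Lingo1. This is a description of sparse counts and no relation is read from it.

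The genes whose class pattern was most like each member were named over 22 values (11 classes in 2 libraries) and 13640 genes with at least 200 UMIs, by the Pearson correlation of log2(CPM + 5). For Lingo1 they were Pgm2l1 (0.91), Gm19461 (0.91), Tmem132a (0.90), B230216N24Rik (0.87) and Elavl4 (0.87), the last a neuronal RNA-binding protein of the Hu family. For Lingo2 they were Mfn1 (0.92), which acts in mitochondrial fusion, Gm12925 (0.92), the neural cell adhesion gene Chl1 (0.91), Gm12224 (0.91) and Phf24 (0.91). All 5 of the Lingo2 set were lowest in control Microglia-like nuclei, as Lingo2 itself was. The genes were picked over these same values, so nothing is read from that shared minimum.

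The partners of LINGO1 were then set beside it, from lists of 35 genes in all. In GN-like nuclei 31 of the 35 had at least 20 UMIs, 1 was called higher and 4 lower, against 2.87% and 3.54% of all genes, and their median log2 ratio was -0.06 beside -0.01 over all genes. Of the 5 receptors, the Nogo receptor Rtn4r itself was scarce, with 5.08 CPM in control against 3.46 CPM in the library labelled cKO. Its relative Rtn4rl1 had 66 UMIs (11.6 CPM) in control and 109 UMIs (18.0 CPM) in the library labelled cKO, with a ratio of 1.56 (1.14 to 2.15). Ngfr, the p75 co-receptor, had 93 and 40 UMIs (16.3 and 6.60 CPM), a ratio of 0.41 (0.27 to 0.59). The receptors and co-receptors thus held 1 call in each direction.

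Of the ligands, Rtn4, which encodes Nogo, had 336 and 322 CPM in GN-like nuclei, a ratio of 0.96 (0.90 to 1.02). Omg, which encodes oligodendrocyte myelin glycoprotein, was called lower (18.6 and 10.9 CPM, a ratio of 0.59, 0.42 to 0.81), and Mag was under the minimum. None of the 7 downstream genes and binding partners was called in GN-like nuclei, among them Rhoa at 49.7 and 43.4 CPM and the kinase gene Wnk1 at 184 and 194 CPM.

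In GNP-like nuclei 26 of the 35 list genes were measured, 4 called higher and 4 lower (7.02% and 6.57% of all genes). Ngfr was lower there too (45.6 and 20.6 CPM, a ratio of 0.45, 0.21 to 0.87), and Tnfrsf19, which encodes TROY, was higher on 12 and 19 UMIs (5.76 and 39.1 CPM, a ratio of 6.79, 3.13 to 15.3). The growth factor receptor gene Egfr was called higher (125 and 196 CPM, a ratio of 1.57). Among 31 list genes measured in Purkinje cell-like nuclei 1 was called, Egfr, which was lower at 22.8 and 8.97 CPM (ratio 0.39, 0.27 to 0.57). Of all genes there, 1.44% were called higher and 4.08% lower. Rtn4rl1 had 75.1 and 74.8 CPM in Purkinje cell-like nuclei, more than in GN-like nuclei, although Lingo1 was lower there.

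Over all kept nuclei, 2 of the 35 list genes were called higher and 4 lower, against 4.58% and 5.57% of all genes. Tnfrsf19 was higher (14.7 and 22.5 CPM, a ratio of 1.53) and so was Mag, on 12 and 54 UMIs (ratio 3.06, 1.62 to 6.28). Ngfr was lower (16.6 and 8.22 CPM), as were Lrig3 (31.2 and 15.2 CPM), Islr (13.5 and 5.37 CPM) and Islr2 (94.4 and 61.6 CPM), 3 proteins of the leucine-rich repeat and immunoglobulin kind. The shares of the classes differed between the libraries, and their part in these values was not tested.

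The 20 other listed proteins that pair leucine-rich repeats with immunoglobulin domains share the domain plan of the family. In GN-like nuclei 18 were measured and none was called higher, where 2.87% of all genes were called higher and 3.54% lower. Lrfn2 (18.0 and 10.1 CPM, a ratio of 0.56, 0.40 to 0.77) and Islr (9.10 and 3.46 CPM, a ratio of 0.38) were lower. Lrrc4c, which encodes a netrin-G ligand, had the most UMIs of them, at 1697 and 1994 CPM, with a ratio of 1.18 (1.14 to 1.21) against 1.60 for Lingo2. In GNP-like nuclei 7.02% of all genes were called higher and 6.57% lower. Lrig1 (35.5 and 74.2 CPM, ratio 2.09) and Lrfn2 (54.3 and 98.9 CPM, ratio 1.82) were higher there. Lrfn5 (146 and 35.0 CPM, ratio 0.24), Lrrn2 (102 and 35.0 CPM, ratio 0.34) and Islr (62.4 and 22.7 CPM, ratio 0.36) were lower. In GABAergic interneuron-like nuclei Lrfn3 was called lower on 26 and 23 UMIs (9.09 and 3.97 CPM, ratio 0.44), where 2.24% of all genes were called lower. Lrfn2 thus lay on opposite sides of 1 in GNP-like and GN-like nuclei, a difference that was not tested.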

How the data were processed

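Nuclear RNA was counted in 2 single-nucleus libraries made with a 10x Genomics kit. Per the submitters' processing notes and the methods, the authors used bcl2fastq and Cell Ranger 7.0.1 with mm10. The deposited values are raw UMI counts, whole and not normalised. Intron counting is not given in the sources used here. Free RNA was not corrected.

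Of 4857 control and 6946 cKO barcodes, 1 and 5 with over 25% mitochondrial UMIs and the top 0.8% of Scrublet scores per 1000 barcodes (scanpy 1.11.5; 189 and 386 nuclei) were removed. The automatic threshold marked 1 control nucleus, so it had not worked there. Seurat 5.3.0 (R 4.3.3) clustered the nuclei after canonical correlation integration (3000 variable features per library, 2000 integration features, 30 and 20 dimensions, resolution 0.8, granule states 0.5), leaving out the members, the 35 list genes, Tox3 and Atoh1. Naming needed 3 markers of a class in 10% of nuclei and 2-fold above other clusters' median, with the first-listed marker among them, and failed where another class led. The first-marker condition was set after seeing cluster 2. Classes are rebuilt and can differ from those of the study. Of 11 classes, 1 enters the counts over classes but is not reported here.

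The members and lists were chosen with earlier results of these data known. Named genes are the members, list genes past the call, the 5 genes most like Lingo1 and Lingo2, and the 3 leading genes of each state. Rtn4, Rtn4r, Rhoa, Wnk1, Lrrc4c and the cluster genes were named after their values were seen. The call was checked on simulated counts that held counting error only. Variation between libraries was not simulated, so the check does not bear on it. Intervals are at 95%, exact (Poisson, Clopper-Pearson, conditional binomial) except for the standardised ratio, which has a normal interval on the log scale, and cover counting error only. With 1 library a group no test was run. Gene positions are from GENCODE M21 and promoters from RefSeq, both on GRCm38. Python 3.11.15, numpy 2.4.6 and scipy 1.17.1 were used. Doublet, depth, sex, scaling, clustering and threshold alternatives were tried.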

Additional observations from a re-analysis of the deposited data

Results flagged for a closer look

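The Lingo2 ratio of the library labelled cKO over control lay on the other side of 1 in Parenchymal astrocyte-like nuclei, at 0.87 (0.77 to 0.98), than in the 7 classes whose interval lay above 1. With 1 library a group the difference between the classes was not tested.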

How the results depend on the processing

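Of 120 alternative values of the ratios, 99 moved by less than their counting interval, 21 moved by more and 0 changed direction from a called value. Direction was followed only where the main ratio was called, as for Lingo2 in GN-like and GNP-like nuclei and standardised by state. Uncalled ratios did cross 1, for example Lingo1 in Purkinje cell-like nuclei (0.763 to 1.34) and Lingo3 over all kept nuclei (1.22 to 0.961). The Lingo2 ratio in GN-like nuclei lay between 1.58 and 1.72 and stayed past 1.5-fold in 14 of 14 alternatives. It was 1.71 with nuclei thinned to 1000 UMIs, 1.70 without integration, 1.70 with classes from summed marker UMIs and 1.72 when joined with cluster 2. In GNP-like nuclei it lay between 1.19 and 3.24, past 1.5-fold in 11 of 13. The values were 1.19 in nuclei with Y-linked UMIs only, 1.43 with the automatic doublet threshold and 3.24 with the Microglia-like level subtracted. The value of 3.24 is among the 11, but it divides by a difference of control levels that were not separable, so nothing is read from it. In Purkinje cell-like nuclei Lingo2 was at 1.07 with no doublets removed and 1.08 with the automatic threshold, and Lingo1 at 1.34 in nuclei with Y-linked UMIs only. Over all kept nuclei Lingo2 was at 1.53 after thinning. There, in nuclei with Y-linked UMIs only, Lingo1 was at 0.883 and Lingo3 at 1.999, and Lingo3 was at 0.961 in those with Xist only. The standardised Lingo2 ratio was 1.80 with median-of-ratios scaling, 1.79 after thinning, 1.64 at either other state resolution and with another seed, 1.75 without integration and 1.56 without cluster 2. At 2-fold, GN-like nuclei had 0 list genes higher and 2 lower, and 182 of all genes higher and 253 lower. GNP-like nuclei had 2 list genes higher, and 503 of all genes higher and 486 lower. Purkinje cell-like nuclei had 101 and 294. Causes were not tested. Joining with or leaving out cluster 2 and subtracting the Microglia-like level were chosen after seeing the data. No paired analysis was possible because each group is 1 library. Depth limits Lingo3 and Lingo4 most.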
